A study of Mus musculus with 10 samples.

Results

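Chemokines are small secreted proteins that guide leukocytes, and chemokine receptors are the G protein-coupled receptors through which cells sense them. The set described here holds every array probe whose gene name in the files is Ccl, Cxcl, Ccr or Cxcr followed by a digit, or Xcl1, Xcr1, Cx3cl1 or Cx3cr1. By that rule 68 of the 41174 probes were members, and they represent 53 of 27729 genes and unnamed transcripts, 35 of ligands and 18 of receptors. Of these, 45 genes passed the filter on dim probes (29 ligands and 16 receptors), out of 17775 genes and unnamed transcripts that passed it in all. Cxcr7 of the files is given under its current name Ackr3, and Cxcr2, which the files list as Il8rb, lies outside the rule and was used only for its ligand and as a named gene.

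In lymphoid tissue, Ccl19 and Ccl21 made by stromal cells hold Ccr7-bearing T cells and dendritic cells in the T-cell zone, while Cxcl13 draws Cxcr5-bearing B cells into follicles. Cxcl12 retains Cxcr4-bearing cells in bone marrow and lymph node. Inflammatory chemokines such as Ccl2, Ccl3 and Ccl4 are made by macrophages and other activated cells and recruit monocytes, T cells and further leukocytes. Most chemokine receptors signal through Gi proteins.

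Spontaneous lymphomas of 10 mice were profiled, with 1 single-colour Agilent array per tumour. The 5 tumours called +/L came from mice heterozygous for the LIP allele of C/EBPβ, a transcription factor whose truncated isoform LIP keeps the DNA-binding part and has little activating domain left, and the 5 tumours called +/+ came from wild-type mice of the same cohort. No drug treatment is given in the labels, and both groups were kept in a pathogen-free facility until a tumour could be felt. The +/L tumours came from mice 20, 23, 517, 688 and 866, aged 21, 20, 20, 18 and 11 months, and the +/+ tumours from mice 11, 17, 19, 40 and 101, aged 29, 20, 23, 26 and 26.5 months. Values per tumour are given below in this order of mice. The germline allele is present in tumour cells and host cells alike, and each RNA came from a piece of whole tumour. In such bulk samples, fewer cells of a type and less RNA per cell cannot be told apart.

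All levels are log2 values relative to the 75th percentile of the array's signal, so that a difference of 1 is a doubling, and they compare tumours for 1 probe, not genes with each other. The 7 B-cell and 7 T-cell marker genes were well above background on all 10 arrays. The labels give male for 3 tumours, +/L mouse 20 and +/+ mice 11 and 101, and female for 7. In mice 20 and 11, Xist was well above background and 0 of 3 Y-linked genes were. In mouse 101, 3 of 3 Y-linked genes were well above background and Xist was not. For +/L mouse 866 and +/+ mouse 17 the slide number in the description differs from that in the file header. The B-cell markers summed to 50.1 times the 75th percentile in the tumour of mouse 866, against 172 to 292 in the other 9 tumours. For several results that rest on mice 20, 11, 866 or 17, values without these tumours are also given. Age differed between the groups, with a mean of 18 months in +/L mice and 24.9 months in +/+ mice.

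Promoter sequences are shown for 7 members because the study alters a C/EBP factor: Ccl3 of the lower inflammatory ligands, Ccr2 of the closest ligand and receptor pair, Ccl21a and Ccl19 of the T-zone ligands, Cxcl10 of the interferon-induced ligands, Ccl25 as the member without overlap and Cx3cr1 as the receptor at unadjusted p. Each run is the 250 bases before the RefSeq start of the gene, written 5′ to 3′ on the strand of the gene, in build GRCm38.p6. Capitals mark matches to the loose C/EBP consensus TTNNGNAA, to the core of the interferon-stimulated response element (GAAA, 2 free bases and GAAA), or to the NF-kB consensus, on either strand, and matches that overlap run together.
Ccl3 (chr11:83649379-83649628, minus strand, 1 loose C/EBP match): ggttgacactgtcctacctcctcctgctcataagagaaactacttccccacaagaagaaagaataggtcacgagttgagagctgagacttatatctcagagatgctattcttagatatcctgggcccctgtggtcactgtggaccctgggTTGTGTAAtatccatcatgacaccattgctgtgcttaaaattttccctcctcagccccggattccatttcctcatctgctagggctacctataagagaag
Ccr2 (chr9:124101933-124102182, plus strand, 1 loose C/EBP match): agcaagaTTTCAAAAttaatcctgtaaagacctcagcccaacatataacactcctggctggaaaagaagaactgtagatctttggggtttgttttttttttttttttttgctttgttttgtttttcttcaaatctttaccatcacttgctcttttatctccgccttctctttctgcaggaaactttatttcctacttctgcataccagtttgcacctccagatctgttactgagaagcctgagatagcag
Ccl21a (chr4:42773992-42774241, minus strand, 1 loose C/EBP match): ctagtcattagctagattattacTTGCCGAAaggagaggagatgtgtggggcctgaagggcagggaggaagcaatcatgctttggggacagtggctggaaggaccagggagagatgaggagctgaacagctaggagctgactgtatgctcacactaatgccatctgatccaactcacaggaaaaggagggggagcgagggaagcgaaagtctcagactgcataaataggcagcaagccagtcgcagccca
Ccl19 (chr4:42756366-42756615, minus strand, 1 interferon element core): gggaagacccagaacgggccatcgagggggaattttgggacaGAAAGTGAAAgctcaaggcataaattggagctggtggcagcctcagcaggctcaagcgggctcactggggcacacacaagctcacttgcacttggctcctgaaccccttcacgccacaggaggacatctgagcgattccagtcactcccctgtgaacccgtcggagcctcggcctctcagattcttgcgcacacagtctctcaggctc
Cxcl10 (chr5:92348890-92349139, minus strand, C/EBP, interferon element and NF-kB matches): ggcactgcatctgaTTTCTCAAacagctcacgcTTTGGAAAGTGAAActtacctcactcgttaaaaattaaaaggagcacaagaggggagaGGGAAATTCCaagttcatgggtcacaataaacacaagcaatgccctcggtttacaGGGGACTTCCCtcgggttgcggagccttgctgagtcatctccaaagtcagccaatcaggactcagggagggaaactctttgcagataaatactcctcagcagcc
Ccl25 (chr8:4324960-4325209, plus strand, first of 2 listed starts, 0 matches): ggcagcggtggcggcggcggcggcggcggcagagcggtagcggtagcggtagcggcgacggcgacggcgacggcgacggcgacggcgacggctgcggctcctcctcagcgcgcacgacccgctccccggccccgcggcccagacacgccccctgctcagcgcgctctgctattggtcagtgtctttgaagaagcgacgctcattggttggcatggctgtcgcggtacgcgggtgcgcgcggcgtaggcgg
Ccl25 (chr8:4349338-4349587, plus strand, second of 2 listed starts, 0 matches): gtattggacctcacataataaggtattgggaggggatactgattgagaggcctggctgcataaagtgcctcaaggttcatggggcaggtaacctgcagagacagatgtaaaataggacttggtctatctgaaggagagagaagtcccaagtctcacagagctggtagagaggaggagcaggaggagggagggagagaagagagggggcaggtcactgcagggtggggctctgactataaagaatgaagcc
Cx3cr1 (chr9:120068297-120068546, minus strand, 0 matches): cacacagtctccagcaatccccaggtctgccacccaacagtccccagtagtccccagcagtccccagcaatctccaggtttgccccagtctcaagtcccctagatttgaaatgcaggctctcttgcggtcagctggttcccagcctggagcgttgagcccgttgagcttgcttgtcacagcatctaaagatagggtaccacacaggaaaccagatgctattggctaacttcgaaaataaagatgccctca
The promoter of Ccl17, not shown, also held 0 matches. Of the 53 genes, 39 had a promoter in the RefSeq table, and the shares that follow are over its whole windows, which also take in the first bases of each gene. The member shares count genes, each by a match in any of its listed promoters. The shares of all count single promoters, so the units differ and the member shares can be raised by this. The loose C/EBP consensus was found in 18 of these 39 (46.2%), against 40.7% of all 32851 promoters of the table. The full palindrome, TTGC joined to GCAA, was in 0 of 39, against 0.183% of all promoters. The NF-kB consensus was in 11 of 39 (28.2%), against 8.46% of all, and the interferon element core in 3 of 39 (7.69%), against 3.44%; the 3 were Ccl19, Cxcl10 and Cxcl14. A match of letters does not show binding.

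No chemokine or receptor gene passed the threshold between +/L and +/+ tumours in limma with Benjamini-Hochberg adjustment over all 17775 genes. The smallest adjusted p of a member was 0.54, and 0 genes of the whole table passed (0%). At an unadjusted limma p under 0.05 stood 10 of the 45 members (22.2%), against 8.58% of all genes tested. Of the 10, 4 were higher in +/L tumours, against 3.14% of all genes, and 6 were lower, against 5.44% of all genes. The ligands held 9 of the 10 (9 of 29, or 31.0%), and the receptors 1 (1 of 16, or 6.25%). The values of the groups did not overlap for 1 member, Ccl25, against 1.8% of all genes. That member was higher in +/L tumours, against 0.54% of all genes, and 0 members were lower without overlap, against 1.26% of all genes.

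The members varied more from tumour to tumour than most genes did. Over the 10 tumours their median SD was 1.15 on the log2 scale, against 0.56 over all genes tested, and 42 of the 45 lay above the median of all genes. Ccl24 spanned 10.9 log2 units between its lowest and highest tumour and Ccl11 spanned 7.09, whereas Cxcr4 spanned 1.29 and Ccl27a 1.07. The +/L tumour of mouse 866 was the highest of all 10 for 14 of the 45 members, and the +/+ tumour of mouse 101 for 11. The lowest values lay in the +/L tumour of mouse 517 for 10 members, in the +/+ tumour of mouse 11 for 8 and in the +/L tumour of mouse 20 for 7. The median difference, +/L minus +/+, was 0.08 over the 45 members and -0.02 over all genes, with 24 members higher and 21 lower, where 51.9% of all genes were lower. With age as a covariate the split became 14 higher and 31 lower, with a median of -0.69, while 54.4% of all genes were then higher, with a median of 0.06. The median of the members was -0.04 after normexp and quantile normalization, with 21 higher and 24 lower.

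**Figure D1:**
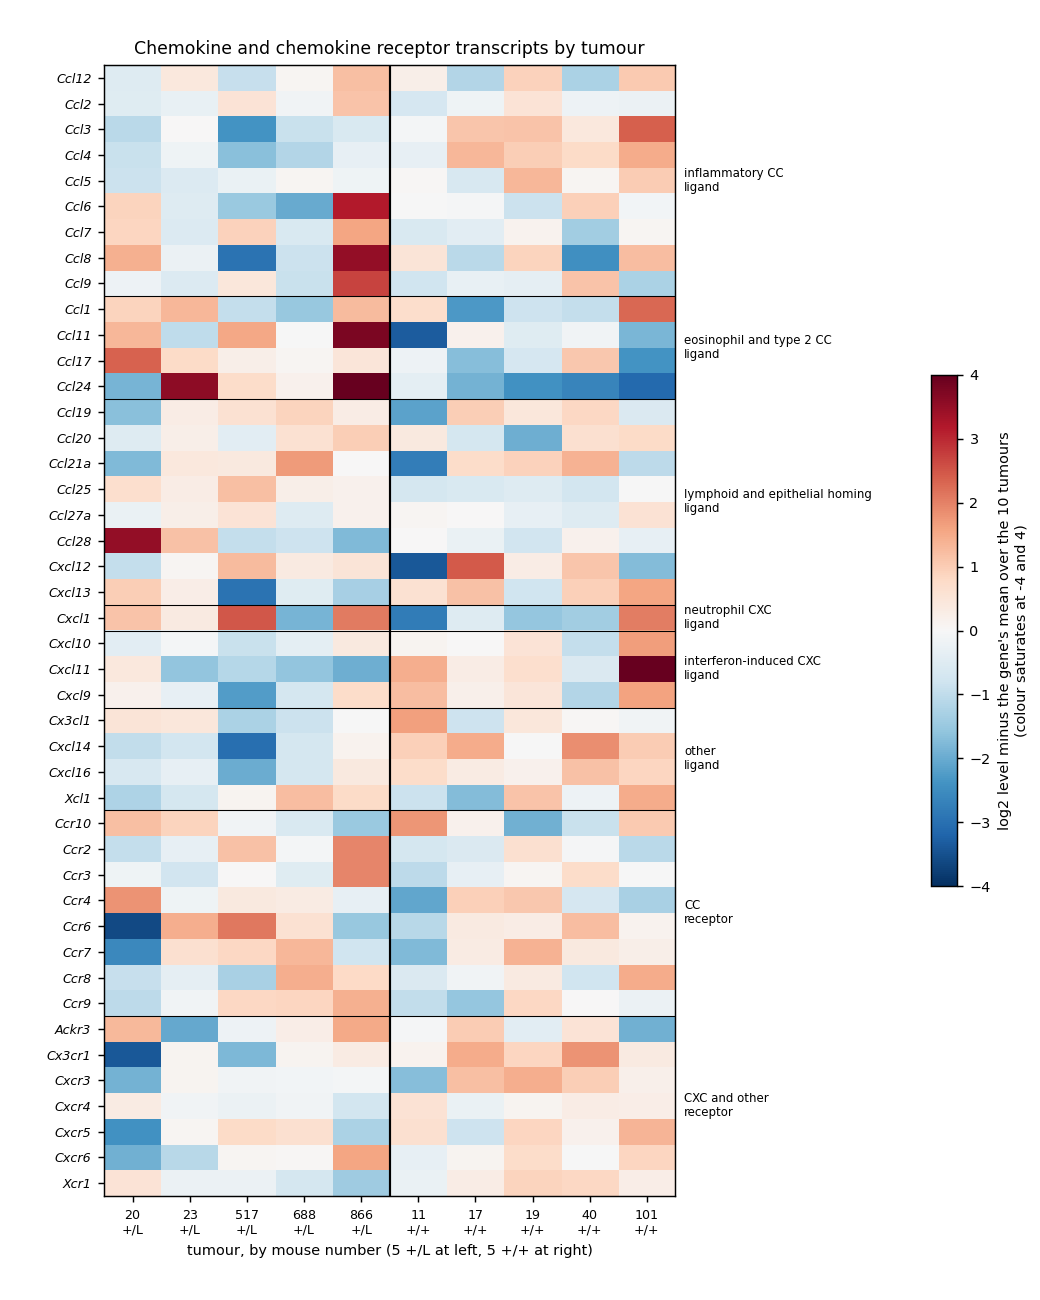
Level in each tumour of 44 of the 45 measured members, as log2 level with the average of that gene subtracted, with 5 +/L tumours left of the line and 5 +/+ tumours right of it, and rows grouped by role. The tumours of mice 866 and 101 hold many of the darkest red cells, and the row of Ccl24 covers the widest range.

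Among the inflammatory CC ligands, Ccl3 and Ccl4 were lower in +/L tumours at unadjusted p, and the other 7 of 9 were not past it in either direction. Both are macrophage inflammatory proteins, and their genes are neighbours. Ccl4 (probe at chromosome 11, 83478052 to 83478111 in mm9) read 2.43, 3.13, 1.62, 2.15 and 2.97 in the +/L tumours, against 2.98, 4.62, 4.29, 4.07 and 4.78 in the +/+ tumours. The +/+ tumour of mouse 11 was the only one of its group within the +/L range. The means were 2.46 ± 0.62 for +/L and 4.15 ± 0.71 for +/+ tumours (SD, n = 5 each), a difference of -1.69 with a standard error of 0.40 (limma unadjusted p = 0.00154, adjusted p = 0.54, exact two-sided permutation p = 0.016). Ccl3 (chromosome 11, 83461358 to 83461417 in mm9) read -0.10, 0.98, -1.43, 0.07 and 0.36 in +/L tumours, against 0.89, 2.09, 2.11, 1.41 and 3.35 in +/+ tumours. Again only mouse 11 of the +/+ group fell inside the +/L range, below the +/L tumour of mouse 23. Its means were -0.02 ± 0.89 for +/L and 1.97 ± 0.92 for +/+ tumours (SD, n = 5 each), a difference of -1.99 with a standard error of 0.52 (limma adjusted p = 0.54, exact permutation p = 0.016).

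By the file headers, slide 1 held +/L mice 20 and 688 and +/+ mice 17 and 40. Slide 2 held +/L mouse 866 and +/+ mice 19 and 101, and slide 3 held +/L mice 23 and 517 and +/+ mouse 11. Differences within slides therefore rest on mouse 866 alone for +/L on slide 2 and on mouse 11 alone for +/+ on slide 3. Within the 3 slides, the Ccl4 difference was -2.06, -1.57 and -0.60, and the Ccl3 difference was -1.76, -2.37 and -1.12. Without mice 866 and 17 they were -1.70 and -2.06, and without mice 20 and 11 they were -1.97 and -2.24. With a block on the slide of the description they were -1.11 and -1.21. The 7 macrophage markers summed to 37.3 to 274 times the 75th percentile in +/L tumours, against 262 to 454 in +/+ tumours. Of the 7, 6 were lower in +/L, where 51.9% of all genes were. C1qa, C1qb and C1qc, subunits of the first complement component made by macrophages, differed by -1.44, -1.58 and -1.33 (limma adjusted p = 0.54 each), while the mannose receptor Mrc1 was higher by 2.58 (limma adjusted p = 0.56). Their part in the results was not tested.

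Ccl5, a ligand made by activated T cells and NK cells, read 6.61, 6.90, 7.20, 7.54 and 7.28 in +/L tumours, against 7.50, 6.82, 8.78, 7.53 and 8.47 in +/+ tumours. The 2 highest values were +/+, and the groups overlapped (difference -0.71, limma adjusted p = 0.63). The monocyte chemoattractant Ccl2 read 1.52, 1.70, 2.55, 1.88 and 3.13 in +/L tumours, against 1.34, 1.83, 2.54, 1.79 and 1.78 in +/+ tumours, with 2 +/L tumours above and 1 +/+ tumour below the values of the other group (difference 0.30, limma adjusted p = 0.84). Its close relative Ccl7 differed by 0.88 (limma adjusted p = 0.64). It read 0.77, -0.63, 0.84, -0.69 and 1.48 in +/L tumours, against -0.71, -0.50, 0.06, -1.48 and -0.0004 in +/+ tumours, so that 3 +/L tumours lay above every +/+ tumour and 2 did not. Ccl6, Ccl8 and Ccl9 were each highest in the +/L tumour of mouse 866, at 6.08, 7.75 and 4.30, against at most 3.87, 5.65 and 2.74 in the other 9 tumours. The difference between the genotypes was 0.02 for Ccl6, 0.36 for Ccl8 and 0.62 for Ccl9, and that of Ccl12 was 0.10. Without mouse 866 it was -0.77 for Ccl6, -0.48 for Ccl8 and 0.02 for Ccl9.

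The ligands of the eosinophil and type 2 group were higher in +/L tumours in 4 of 4 measured members, 3 of them at unadjusted p, where 3.14% of all genes were higher at that p. Mast cell markers were also higher by sign in 4 of 5 (2 at unadjusted p), where 48.1% of all genes were. They summed to 1.1 to 6.43 times the 75th percentile in +/L tumours, against 0.798 to 1.65 in +/+ tumours. The 2 at unadjusted p were Fcer1a, well above background on 5 arrays, and Hdc, on 10. After normexp and quantile normalization their differences of 2.08 and 1.75 were 0.41 and 1.32. Adipocyte markers were higher by sign in 5 of 5 (3 at unadjusted p), with sums of 15.9 to 160 in +/L tumours, against 3.83 to 51.5 in +/+ tumours. In each of these 2 lists, 2 of the 5 markers were well above background on all 10 arrays. The part of these cell types in the ligand values was not tested. Ccl24 (eotaxin-2, which attracts eosinophils through Ccr3; chromosome 5, 136046485 to 136046544 in mm9) had the largest difference of the 45 members. It read -3.26, 2.20, -0.66, -1.21 and 6.44 in +/L tumours, against -1.78, -3.28, -3.81, -4.03 and -4.50 in +/+ tumours. Of the 5 +/L tumours, 4 lay above every +/+ tumour, with mouse 866 far above the rest and mouse 20 inside the +/+ range. The difference was 4.18 with a standard error of 1.54 (limma adjusted p = 0.55, exact permutation p = 0.016), and 2.75 without mouse 866. It was 2.80 without mice 866 and 17, 2.78 in the deposited value table and 1.32 with age as a covariate, and within the slides it was 1.42, 10.6 and 2.55. The second probe of Ccl24, well above background on 8 arrays, differed by 4.18 as well. By that probe mouse 20 read -1.81, above the highest +/+ tumour at -3.32, and the groups did not overlap (exact permutation p = 0.0079).

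Ccl11 (eotaxin-1, also a Ccr3 ligand) read -0.24, -2.56, -0.0023, -1.57 and 2.19 in +/L tumours, against -4.89, -1.39, -2.04, -1.69 and -3.37 in +/+ tumours. Mice 20, 517 and 866 lay above every +/+ tumour, and the other +/L tumours within the +/+ range. Its difference of 2.24 with a standard error of 0.92 (limma adjusted p = 0.57, exact permutation p = 0.063) was 1.91 without mice 866 and 17, 1.47 after normexp and quantile normalization and 1.29 in the deposited value table, and became -0.04 with age as a covariate. Ccl17, which attracts Ccr4-bearing T cells and is made by dendritic cells, read -1.61, -3.19, -3.73, -3.88 and -3.49 in +/L tumours, against -4.18, -5.68, -4.65, -2.88 and -6.36 in +/+ tumours. The +/+ tumour of mouse 40 was above 4 of the 5 +/L tumours, and the other +/+ tumours were below all of them. Its probe passed the background flag on 5 of 5 +/L and 3 of 5 +/+ arrays (difference 1.57 ± 0.66 standard error, limma adjusted p = 0.57, exact permutation p = 0.079), and the difference was 0.32 after normexp and quantile normalization, 0.20 in the deposited value table and 0.28 with a block on the slide of the description. Ccl1 differed by 0.42 (limma adjusted p = 0.92). Ccl22, the other Ccr4 ligand, passed that flag on 1 of 5 +/L and 1 of 5 +/+ arrays and was not tested.

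**Figure D2:**
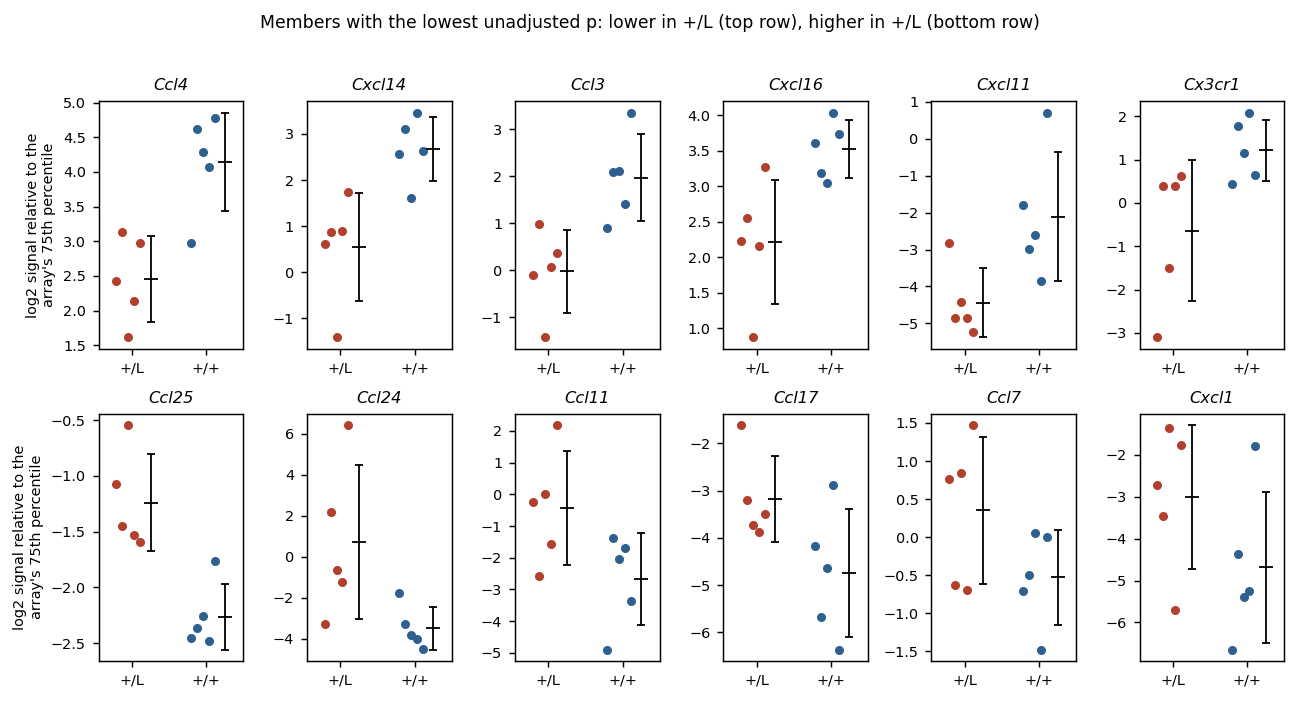
Level per tumour (points) of the 6 members of lowest p in each direction, as log2 signal relative to the array's 75th percentile, with mean and SD (bars, n = 5 per group), +/L left of +/+. Only the points of Ccl25 do not overlap between the groups, and 1 +/L point of Ccl24, mouse 866 at 6.44, lies far above the others.

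Of the 8 homing ligands, Ccl25 stood at unadjusted p and 7 of 8 were higher in +/L by sign, where 48.1% of all genes were. Of the 7, Ccl20 and Ccl28 passed the background flag on 3 arrays each, and Ccl27a differed by 0.08. Ccl19 varied together with Ccl21a (r = 0.96) and with Cxcl12 (r = 0.89). The differences of these last 3 ligands turned negative without +/+ mouse 11 and with age as a covariate. Ccl25, which guides Ccr9-bearing lymphocytes to gut and thymus (chromosome 8, 4359916 to 4359975 in mm9), read -1.08, -1.45, -0.54, -1.53 and -1.59 in +/L tumours, against -2.46, -2.37, -2.26, -2.48 and -1.76 in +/+ tumours. Every +/L tumour was above every +/+ tumour, the nearest being mice 866 and 101. The difference was 1.03 with a standard error of 0.25 (limma adjusted p = 0.54, exact permutation p = 0.0079, the smallest that 5 against 5 allows). Within the slides it was 1.12, 0.42 and 1.46, and it lay between 0.85 and 1.15 when single tumours were left out. After normexp and quantile normalization it was 0.57, and it was 0.47 in the deposited value table. A dimmer second probe of Ccl25, well above background on 4 arrays, differed by 0.76 (exact permutation p = 0.41). Its receptor Ccr9 read -1.72, -0.81, 0.15, 0.20 and 0.75 in +/L tumours, against -1.66, -2.22, 0.17, -0.65 and -0.91 in +/+ tumours, with mice 688 and 866 above and mouse 17 below every tumour of the other group (difference 0.77, limma adjusted p = 0.71).

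The T-zone ligands Ccl19 and Ccl21a were well above background on all 10 arrays and both lowest in mice 20 and 11. Ccl19 read 4.72, 6.69, 7.0, 7.26 and 6.68 in +/L tumours, against 4.25, 7.37, 6.83, 7.20 and 5.80 in +/+ tumours. Ccl21a read 4.16, 6.36, 6.32, 7.63 and 5.92 in +/L tumours, against 3.15, 6.67, 6.85, 7.30 and 4.86 in +/+ tumours. The probe of Ccl21a also matches transcript records of its near-identical copies, so its signal may come from any of them. The differences of 0.18 for Ccl19 (limma adjusted p = 0.95) and 0.31 for Ccl21a (limma adjusted p = 0.94) were within the spread, and both turned negative without +/+ mouse 11, at -0.33 and -0.34, and with age as a covariate, at -1.01 and -0.93. Ccr7, the receptor of both, read -0.99, 2.21, 2.42, 2.93 and 0.78 in +/L tumours, against -0.19, 1.91, 2.99, 1.98 and 1.83 in +/+ tumours. Mice 20 and 11 were again the lowest, 1 in each genotype (difference -0.23, limma adjusted p = 0.95).

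Cxcl12 read 2.07, 3.10, 4.27, 3.36 and 3.52 in +/L tumours, against -0.36, 5.47, 3.32, 4.12 and 1.29 in +/+ tumours, where both the lowest and the highest value lay (difference 0.50, limma adjusted p = 0.91). Its receptor Cxcr4 varied little, with 1.45, 1.0, 0.90, 0.98 and 0.41 in +/L tumours, against 1.70, 0.86, 1.23, 1.42 and 1.38 in +/+ tumours (difference -0.37, limma adjusted p = 0.68). The Cxcr4 difference became 0.20 with age as a covariate. Cxcl13, the B-follicle ligand, read 4.16, 3.47, 0.25, 2.69 and 1.87 in +/L tumours, against 3.80, 4.35, 2.40, 4.13 and 4.76 in +/+ tumours. Only mouse 19 of the +/+ group was below 3.80, and mouse 517 was far the lowest (difference -1.40, limma adjusted p = 0.62). Its receptor Cxcr5 read 1.33, 3.83, 4.53, 4.40 and 2.50 in +/L tumours, against 4.41, 2.94, 4.61, 3.95 and 5.13 in +/+ tumours, with the lowest levels in mice 20 and 866 (difference -0.89, limma adjusted p = 0.72). The Cxcr5 difference was -0.39 without mouse 20 and -0.345 without mice 20 and 11.

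Neutrophil-attracting CXC ligands were dim. Cxcl1 passed the background flag on 4 of 5 +/L and 2 of 5 +/+ arrays and differed by 1.69 with a standard error of 0.99 (limma adjusted p = 0.65), which was 0.42 after normexp and quantile normalization and 0.29 in the deposited value table. It read -2.71, -3.47, -1.35, -5.69 and -1.77 in +/L tumours, against -6.65, -4.36, -5.38, -5.24 and -1.80 in +/+ tumours, so that mouse 688 lay among the +/+ values and mouse 101 among the +/L values. Cxcl5 was well above background in 2 of 5 +/L tumours, mice 517 at -1.74 and 866 at -0.69, and in 0 of 5 +/+ tumours. With the +/+ values raised to the lowest signal that counted as well above background, its +/L mean was 2.18-fold higher. That +/L mean takes in tumours that were not well above background, so 2.18 is no firm bound. The measured means were -4.05 in +/L and -7.18 in +/+ tumours, and Cxcl5 was not tested. Cxcl2 and Cxcl3 each passed the flag on 1 of 5 +/L and 0 of 5 +/+ arrays. Cxcr2, the receptor of these ligands on neutrophils, read -1.16, -3.39, -1.18, -3.09 and -1.53 in +/L tumours, against -5.19, -2.57, -4.42, -2.35 and -6.37 in +/+ tumours. The difference was 2.11 with a standard error of 0.81 (limma adjusted p = 0.56, exact permutation p = 0.048), with mice 17 and 40 inside the +/L range. It was 0.73 after normexp and quantile normalization, 0.53 in the deposited value table and 0.81 with all kept probes averaged. All 7 neutrophil markers were higher in +/L by sign, where 48.1% of all genes were. Of the 7, 1 was well above background on all 10 arrays. The 7 markers summed to 2.63 to 78.7 times the 75th percentile in +/L tumours, against 0.442 to 17.8 in +/+ tumours. Within slide 1 all 7 differed by -0.24 to -0.81, and within slides 2 and 3 all 7 were higher in +/L. With age as a covariate Ngp (-0.75), Camp (-0.55) and Mmp8 (-0.13) turned negative and the other markers did not. The part of these markers in the ligand and receptor values was not tested.

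The 3 interferon-induced ligands, which act on Cxcr3 of activated T cells, were all lower in +/L by sign, Cxcl11 at unadjusted p. Of all genes, 51.9% were lower by sign. Cxcl11 read -2.83, -4.84, -4.42, -4.84 and -5.23 in +/L tumours, against -1.80, -2.98, -2.61, -3.84 and 0.71 in +/+ tumours. Mouse 20 of the +/L group lay within the +/+ range, and mouse 101 of the +/+ group was far above all others. The difference was -2.33 with a standard error of 0.79 (limma adjusted p = 0.54, exact permutation p = 0.024), -1.62 without mouse 101, -0.97 after normexp and quantile normalization, -0.73 in the deposited value table and -1.20 with age as a covariate. Cxcl9 read 4.21, 3.70, 1.81, 3.33 and 4.78 in +/L tumours, against 5.29, 4.25, 4.53, 2.85 and 5.64 in +/+ tumours (difference -0.95, limma adjusted p = 0.70). Cxcl10 read 2.37, 2.71, 1.90, 2.39 and 3.19 in +/L tumours, against 2.91, 2.81, 3.34, 1.83 and 4.48 in +/+ tumours (difference -0.56, limma adjusted p = 0.75). Mouse 101 was the highest for all 3 ligands, and the groups overlapped for each of them. Cxcr3 read 1.56, 3.55, 3.30, 3.34 and 3.37 in +/L tumours, against 1.73, 4.65, 4.88, 4.42 and 3.64 in +/+ tumours, and mice 20 and 11 were the lowest (difference -0.84, limma adjusted p = 0.72). The Cxcr3 difference was -0.48 without mouse 20 and -1.01 without mice 20 and 11.

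Cxcl14 and Cxcl16 were lower in +/L at unadjusted p. Cxcl14, a ligand of epithelial and stromal cells whose receptor is debated (chromosome 13, 56390078 to 56390137 in mm9), read 0.61, 0.86, -1.41, 0.89 and 1.74 in +/L tumours, against 2.56, 3.10, 1.60, 3.46 and 2.63 in +/+ tumours. Only mice 866 and 19 crossed, and the difference was -2.13 with a standard error of 0.56 (limma adjusted p = 0.54, exact permutation p = 0.016). Within the slides it was -2.53, -0.38 and -2.83. Cxcl16, made by macrophages and dendritic cells as a membrane-bound ligand of Cxcr6, read 2.22, 2.55, 0.87, 2.16 and 3.26 in +/L tumours, against 3.61, 3.18, 3.04, 4.03 and 3.73 in +/+ tumours. The +/L tumour of mouse 866 was the only one of its group in the +/+ range. Its difference was -1.31 with a standard error of 0.40 (limma adjusted p = 0.54, exact permutation p = 0.024), and its second probe differed by -1.47. Within the slides the Cxcl16 difference was -1.42, -0.12 and -1.90. Cx3cl1 differed by -0.46 and Xcl1 by 0.08.

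**Figure D3:**
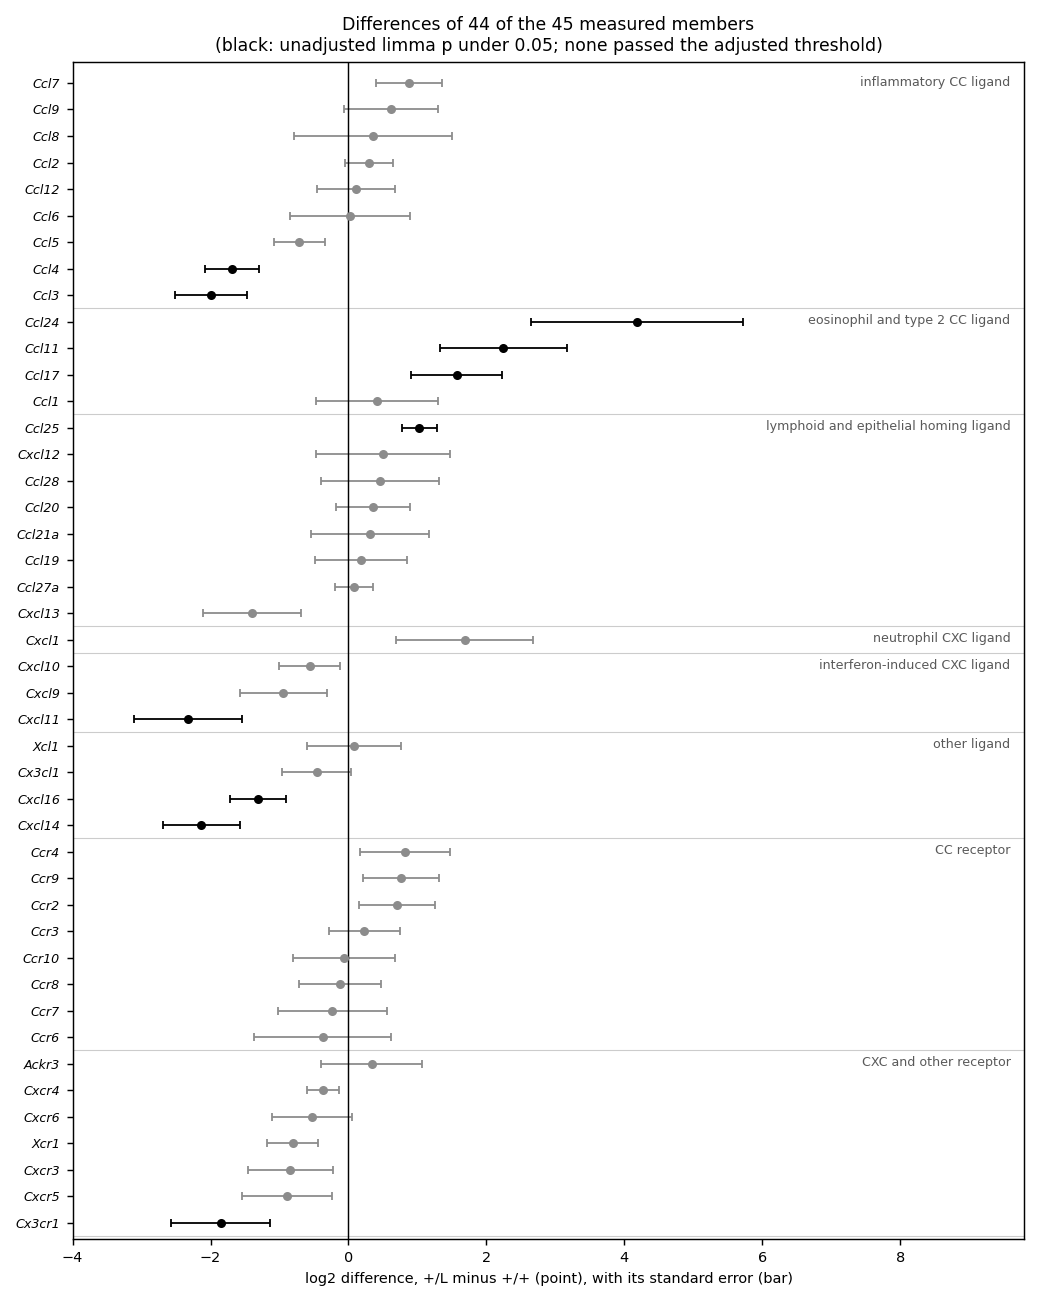
Difference between +/L and +/+ tumours (log2, +/L minus +/+) for 44 of the 45 measured members, each with its standard error from limma (bars), grouped by role. The 10 black points lie at an unadjusted p under 0.05, 9 of them ligands, and those of the eosinophil and type 2 group lie to the right of 0.

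Of the 16 measured receptors, 5 were higher and 11 lower in +/L by their brightest kept probe, Xcr1 among the 11 although its probes disagree, with a median difference of -0.30, against 0.18 over the 29 ligands. Of all genes, 51.9% were lower, with a median of -0.02. Cx3cr1, the fractalkine receptor of monocytes and macrophages (chromosome 9, 119959018 to 119959077 in mm9), was the receptor at unadjusted p. It read -3.10, 0.38, -1.51, 0.40 and 0.62 in +/L tumours, against 0.43, 1.76, 1.16, 2.08 and 0.63 in +/+ tumours. Only mouse 11 of the +/+ group was below the highest +/L tumour, and mice 20 and 517 carried the lowest values. The difference was -1.86 with a standard error of 0.71 (limma adjusted p = 0.56, exact permutation p = 0.016), -1.24 without mouse 20 and -3.17 with age as a covariate. The second probe of Cx3cr1 differed by -1.47 (exact permutation p = 0.024).

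Probes disagreed for Xcr1, the receptor of cross-presenting dendritic cells: the brighter probe differed by -0.81 (exact permutation p = 0.079) and the other by 1.28 (exact permutation p = 0.056), so no direction is given. Ccr2, of monocytes, read -1.60, -0.98, 0.55, -0.71 and 1.32 in +/L tumours, against -1.33, -1.21, -0.0035, -0.69 and -1.71 in +/+ tumours (difference 0.71, limma adjusted p = 0.74). Ccr6, of B cells and some T cells, spanned -1.69 to 4.03 in +/L tumours, against 0.81 to 3.15 in +/+ tumours (difference -0.37). Its lowest value lay in mouse 20. The Ccr6 difference turned to 0.48 without mouse 20 and 0.16 without mice 20 and 11. Ccr3, Ccr4, Ccr8 and Ccr10 differed by 0.23, 0.82, -0.13 and -0.06, Cxcr6 by -0.53 and the scavenging receptor Ackr3 by 0.34, with limma adjusted p between 0.75 and 0.99. The probe of Ccr4 passed the background flag on 6 arrays and that of Ccr8 on 5. The Ccr4 difference was 0.10 after normexp and quantile normalization. By a second Ccr4 probe, well above background on 2 arrays, it was 0.11. Ccr1 was well above background on 0 of 10 arrays.

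Ligands were then set against their receptors across the 10 tumours. Of 35 textbook pairs, 27 had both genes measured, and their Pearson r had a median of 0.32, with 20 positive and 7 negative. Ccl2 and Ccr2 were the 1 pair past a Benjamini-Hochberg adjusted p of 0.05 over the 27 (r = 0.94, permutation p = 0.00045, adjusted p = 0.012). The rank correlation was 0.84 (permutation p = 0.0037, adjusted p = 0.0996), and 0 pairs passed by ranks. Both genes were highest in mice 866 and 517 of the +/L group and mouse 19 of the +/+ group. Without mice 866 and 517, the tumours farthest from the median of Ccl2, r was 0.79 (exact permutation p = 0.021, adjusted p = 0.29). Leaving out mouse 866, 517 or 19 alone gave r of 0.88, 0.93 or 0.94 with adjusted p of 0.066, 0.057 and 0.057 (exact permutation test).

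The relation held within genotype, with r = 0.94 after centring on the genotype mean, and within slides, with r = 0.97 after centring on the slide mean. It was 0.88 without mice 866 and 17 and 0.94 without mice 20 and 11. Ccl2 is printed on 10 spots of each array, and the SD between these spots was 0.035 to 0.10, which measures the noise within an array only. A dimmer second probe of Ccr2, well above background on 7 arrays, gave r = 0.66.

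**Figure D4:**
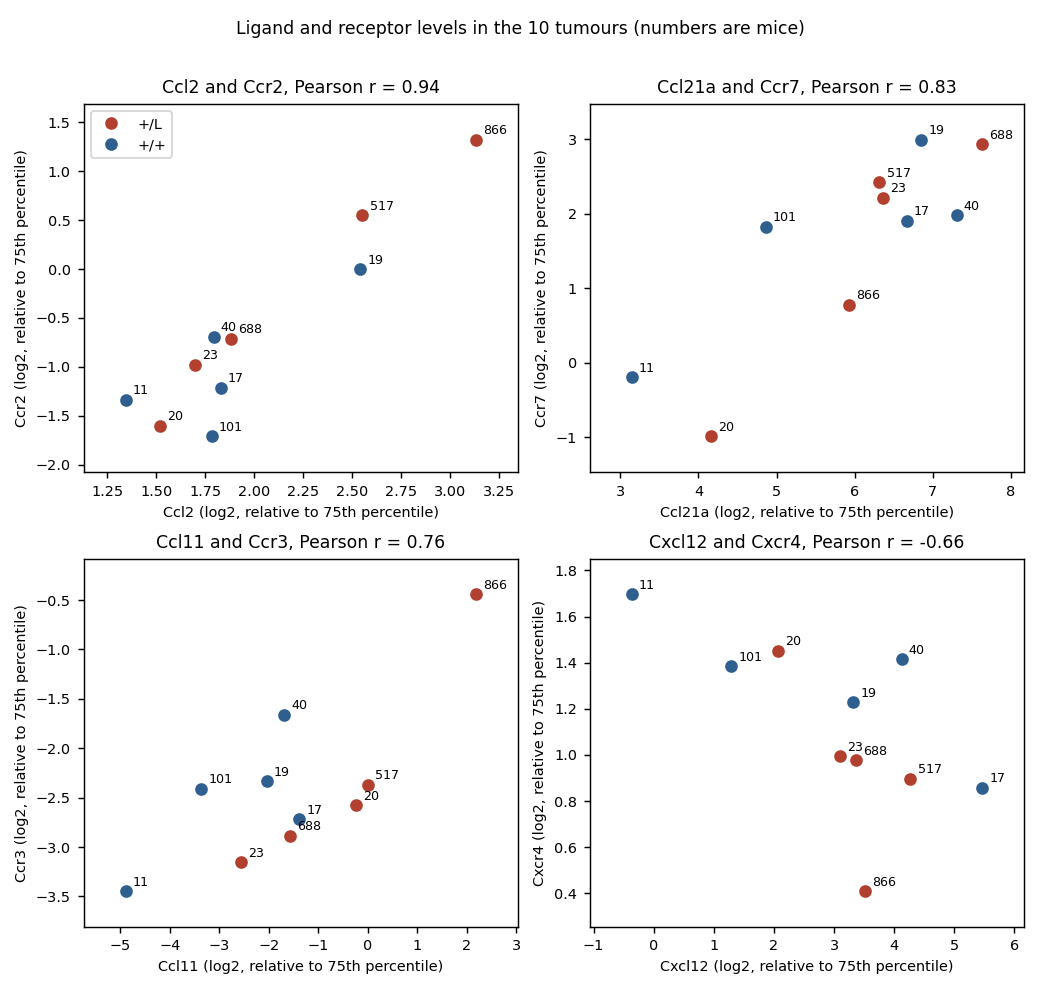
Ligand level (horizontal) against receptor level (vertical) in each tumour for 4 pairs, both as log2 relative to the array's 75th percentile, with +/L and +/+ tumours in different colours and mouse numbers beside the points. Ccl2 and Ccr2 lie along a line, whereas r for Ccl21a and Ccr7 is 0.54 without mice 11 and 20 and that for Ccl11 and Ccr3 is 0.11 without mice 866 and 11.

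Another 4 pairs stood at unadjusted p and missed the adjusted threshold. Ccl21a and Ccr7 had r = 0.83 (permutation p = 0.0043, adjusted p = 0.059; rank correlation 0.81, permutation p = 0.0074) and Ccl19 and Ccr7 had r = 0.83 (permutation p = 0.0071, adjusted p = 0.064; rank correlation 0.67, permutation p = 0.039). Without mice 11 and 20, the tumours in which all 3 genes were low, these r were 0.54 and 0.30. After centring on the slide mean they were 0.91 and 0.87. Ccl11 and Ccr3 had r = 0.76 (permutation p = 0.013, adjusted p = 0.091; rank correlation 0.52, permutation p = 0.13), and r = 0.11 without mice 866 and 11. The second Ccr3 probe was well above background on 0 arrays. Cxcl12 and Cxcr4 had r = -0.66 (permutation p = 0.038, adjusted p = 0.21; rank correlation -0.72, permutation p = 0.024), and r = -0.44 without mice 11 and 17. With the other probes of both genes r lay between -0.47 and -0.80.

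Several well-known pairs showed little relation here. Cxcl13 and Cxcr5 had r = -0.15 (permutation p = 0.68), Ccl20 and Ccr6 -0.01 (permutation p = 0.97) and Cx3cl1 and Cx3cr1 -0.0085 (permutation p = 0.98). The 3 interferon-induced ligands had r of -0.18, 0.12 and -0.09 with Cxcr3 (Cxcl9, Cxcl10 and Cxcl11, permutation p = 0.63, 0.75 and 0.82). Ccl24 and Ccr3 had r = 0.46 with all tumours and -0.50 without mice 866 and 23.

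**Figure D5:**
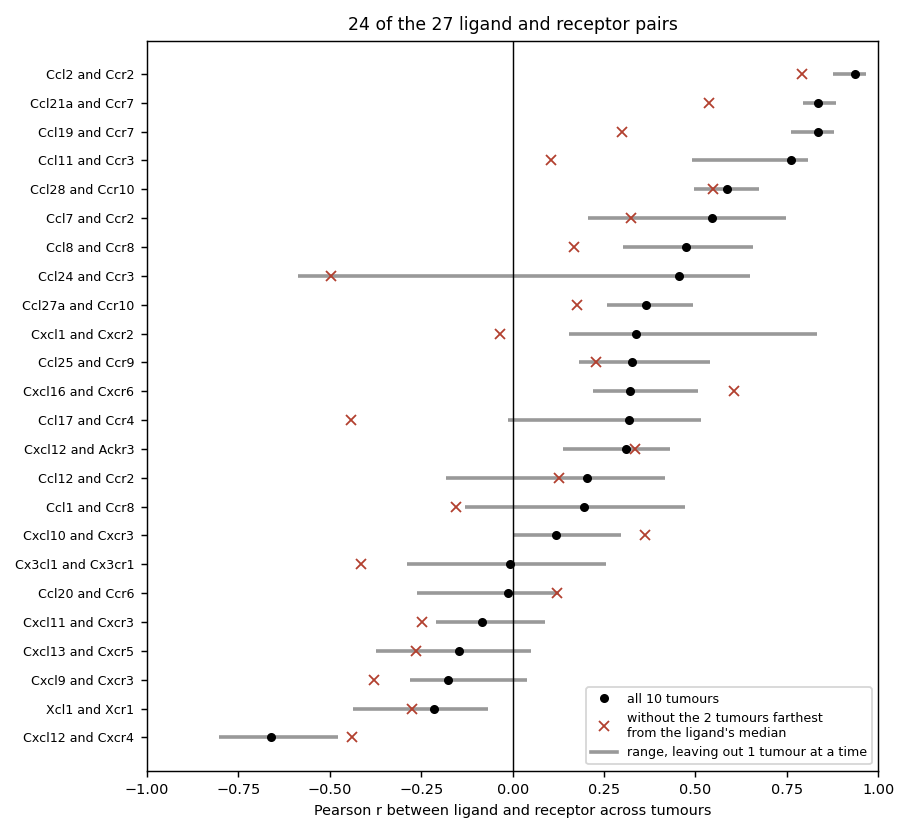
Pearson r between ligand and receptor across the 10 tumours for 24 of the 27 measured pairs (points), with the range when 1 tumour at a time is left out (bars) and the value without the 2 tumours farthest from the ligand's median (crosses). Ccl2 and Ccr2 have the highest r under all 10 tumours, 0.94, and Cxcl12 and Cxcr4 the lowest, -0.66.

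Genes outside the rule that bind chemokines or carry their signal, 28 in number and all measured, were 9 higher and 19 lower in +/L tumours, with a median difference of -0.29. Of all genes, 51.9% were lower, with a median of -0.02. At unadjusted p stood 4 of 28 (14.3%, against 8.58% of all genes), and 0 passed the limma adjusted p. Pf4, a platelet chemokine, was higher by 1.33 (limma adjusted p = 0.54). Rgs18, a regulator of G protein signalling of platelets and myeloid cells, was higher by 1.69 (limma adjusted p = 0.57). Ppbp, a further platelet chemokine among the 28, went the other way by -1.18 and was not at unadjusted p (limma adjusted p = 0.63). The Ppbp probe was dim, with 4 arrays past the background flag. Dock2, a Rac activator needed for lymphocyte migration, differed by -0.60 and Gnb1, a G protein beta subunit, by -0.46; their limma adjusted p-values were 0.54 and 0.57. Without +/L mouse 20, 7 of the 28 (25.0%) stood at unadjusted p, against 13% of all genes in the same fit.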

How the data were processed

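The deposited scanner files hold an intensity per spot, which per the file headers came from version 10.5.1.1 of Agilent's Feature Extraction. Well-above-background and outlier flags come from the same software. The deposited value table holds log2 values, with medians of 6.96 to 6.97 and an unstated offset, and served as an alternative. Processed signals were taken as log2 minus the array's 75th percentile over non-control spots, and outlier spots were left out. The filter kept the 26410 probes that passed the background flag on 3 or more of the 10 arrays, and the brightest kept probe stood for a gene. The 75th percentile was 309 to 651 in +/L and 199 to 340 in +/+ arrays, 48.0% to 66.7% of spots were well above background, and 0 were saturated. Their number limits the precision.

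Genotypes were compared with limma 3.58.1 in R 4.3.3, Benjamini-Hochberg over 17775 genes, no covariate, and single members by an exact permutation test. Pairs were tested with 100000 permutations (exact below 10 tumours). On simulated data the fit recovered 16%, 59.9% and 80.3% of changes of 1, 2 and 3 on the log2 scale, with 5.44% false calls. The changed genes were drawn from all genes tested, with their own spreads. The median SD over the tumours was 0.56 for all genes and 1.15 for the members, so these shares are likely too high for the members. Recovery among the members alone was not simulated. P-values measure the spread between animals of separate mouse numbers. Members, pairs and lists were chosen with earlier results of these data known. Values per tumour were given for the 6 members of lowest p in each direction, both genes of pairs past the threshold, and fixed lymphoid, inflammatory and interferon-induced sets; any further member is named with its values known. The values of 1 member and of its pairs are not reported here, though counts over the set include them. Alternatives changed background correction, scaling, filter, probe rule, covariates, slide block and the arrays used. Probe coordinates are in mm9, per the file headers; promoters are RefSeq's in GRCm38.p6, and exon annotation was not used here.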

Additional observations from a re-analysis of the deposited data

Results flagged for a closer look

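In 54 groups of 5 tumours screened (both genotypes of the 27 named genes), 2 held a tumour far from the other 4, where chance flags about 1 in 20 groups. Ccl19 read 4.72 in the +/L tumour of mouse 20, against 6.68 to 7.26 in the other 4 +/L tumours. Cxcr3 read 1.56 in the same tumour, against 3.30 to 3.55 in the other 4. Mouse 20 is also a tumour whose sex-linked transcripts go against its label, and T-cell markers summed to 15.7 times the 75th percentile there, against 51.3 to 128 in the other +/L tumours; whether these facts are related was not tested. Without mice 20 and 11, the Ccl19 and Cxcr3 differences kept their direction.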

How the results depend on the processing

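No paired analysis was possible because the tumours carry separate mouse numbers and no number is shared between +/L and +/+. Of 27 named genes, 18 kept the sign of their difference in each of the 22 settings that measured them, among them the 6 lower members of lowest p, Ccl25, Ccl24, Ccl17, Ccl7 and Cxcl1. Age as a covariate turned Ccl11 (-0.043), Ccl2 (-0.45), Ccr2 (-0.38), Cxcl12 (-1.42), Cxcr4 (0.20), Ccl19 (-1.01) and Ccl21a (-0.93). Labelled sex as a covariate turned Cxcl12 (-0.083), Ccl19 (-0.25) and Ccl21a (-0.23). A block on the slide of the description, which leaves 3 +/+ arrays without a +/L partner, turned Ccr7 (0.61) and Cxcl10 (0.15) and left 5 members at unadjusted p in place of 10 (11.1%, against 3.76% of all genes in that fit). Leaving out single tumours gave 8 to 12 such members and 3 to 7 pathway genes, where 5.14% to 13% of all genes stood at that p, and differences from -0.28 to 1.17 for Cxcl12, -0.33 to 0.62 for Ccl19, -0.34 to 0.79 for Ccl21a and -0.71 to 0.38 for Ccr7.

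Over all genes, limma at adjusted p under 0.05 called 1 gene after normexp and quantile normalization, 1 in the deposited value table, and 0 to 3 when single tumours were left out, with 3 without mouse 517; no chemokine or receptor was among them. In the settings used for the report it called 0, with 1525 genes at unadjusted p under 0.05. Pathway genes at unadjusted p were 2 after normexp and quantile normalization, 2 in the deposited table, 2 with a block on the header's slide and 0 with one on the description's, in place of 4, where all genes stood at 9.32%, 9.46%, 7.57% and 3.76%. Pairs past the adjusted threshold were 3 with probes well above background on all 10 arrays, 4 after centring on genotype, 4 after centring on slide, 0 without mice 20 and 11, 0 without mice 866 and 17, 0 without the 2 farthest tumours, and 0 to 1 with single tumours left out. Added to Ccl2 and Ccr2 were Ccl19 and Ccl21a with Ccr7 and, after centring, Ccl11 with Ccr3. The permutation test after centring took no account of the genotype or slide means removed, so its p-values may be too small and the counts after centring too high. Cxcl13 and Cxcr5 turned to r = 0.0195 without mice 20 and 11 and 0.0506 after centring on slide, and had -0.37 to 0.0504 with single tumours left out. The causes were not tested. With 5 tumours a group, changes of 1 on the log2 scale were mostly missed in the simulation, which drew on all genes and not on the more variable members alone.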
